A study of Mus musculus with 4 samples.

Results

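The antiviral interferon-stimulated genes described here are 36 genes of the cell-intrinsic antiviral response, taken by symbol from the 21840 genes of an RNA sequencing table; the OAS, GBP, IRF, STAT and MHC genes were left out of the list and are given apart. All 36 had a row. The samples were 4T1 cells, a mouse mammary carcinoma line that the labels describe as epithelial and WT in genotype, treated with recombinant IL-17A (rIL17, 2 libraries) or with phosphate-buffered saline (PBS, 2 libraries). The sources used here give neither the concentration of rIL17 nor the length of treatment. Whether a group's libraries stem from separate cultures is not labelled, so the p-values below reflect the scatter of these libraries alone, and that scatter may be technical.

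Interferon-stimulated genes are switched on when type I or type III interferon binds its receptor and activates JAK kinases. The transcription factors that these kinases switch on bind the interferon-stimulated response element (ISRE) in promoters, and IRF1 and IRF7 can act on the same element. Many of these genes are also transcribed at a low level without infection, and their products sense viral RNA and DNA, block translation and entry, or tag proteins with the ubiquitin-like protein ISG15. IL-17A, which T cells and some innate lymphocytes secrete, signals through another receptor, with ACT1 and NF-kappaB.

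The deposited values were in each library whole multiples of 1 step, as read counts divided by 1 scaling factor per library would be, and are called normalized counts here. By that step, 17715520 to 17911079 reads were assigned to genes in the rIL17 libraries and 17511450 to 17970104 in the PBS libraries. A gene was tested where its mean over the 4 libraries was at least 10 normalized counts, which kept 13479 genes and 35 of the 36 antiviral genes (Mx1 was the exception). Changes are log2 fold changes of the normalized count + 1, rIL17 over PBS, from limma fitted on the whole table with Benjamini-Hochberg adjustment, and a gene is called at an adjusted p below 0.05. An exact permutation test of 2 against 2 libraries cannot go below a two-sided p of 0.333 for any single gene. PBS replicate 2 stood apart from the other libraries: on the first principal component, which held 66.7% of the variance, it scored 40.4, PBS replicate 1 scored 5.37, and the rIL17 libraries scored -26.3 and -19.4. The share of counts from mitochondrial genes was 1.30% and 1.17% in the rIL17 libraries, against 0.839% and 0.291% in PBS replicates 1 and 2. The part of this share in the results below was not tested. For genes whose log2 fold change moved by more than 0.1 without PBS replicate 2, that value is given too.

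The antiviral genes were in general lower in the rIL17 libraries, by modest amounts, and 1 of the 35 tested passed the test. Ifi27, which encodes a small hydrophobic membrane protein induced by type I interferon, was the called gene, and it fell. None was called higher. Over the whole table, 0.171% of the tested genes were called lower and 0.594% were called higher, and a single call among 35 genes is too few to be read against these shares. The difference in direction was broader than the calls: 30 of the 35 genes had a log2 fold change below 0, against 50.4% of all tested genes. In 24 of the 35, the values of the rIL17 libraries were both under the lower PBS value, against 24.7% of all tested genes, and in 1 gene both rIL17 libraries lay above both PBS libraries, against 25.4%. In the other 10 the groups overlapped. At an unadjusted p below 0.05 there were 17 of the antiviral genes, each with a negative log2 fold change, against 4.99% of all tested genes with a negative change at that level. The median log2 fold change of the 35 genes was -0.29, with a range of -1.34 to 0.89, against -0.0022 over all tested genes. The genes were chosen with earlier results of these data known, so these counts describe the list and are not independent evidence of its direction.

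Summed over the 36 genes, the rIL17 libraries held 16526 and 16353 normalized counts and the PBS libraries held 20590 and 19524. As a share of all counts this was 0.0918% and 0.0920% in the rIL17 libraries and 0.117% and 0.112% in the PBS libraries, so the groups did not overlap on the sum. The lowest of the 4 values belonged to rIL17 replicate 1 in 13 genes, to rIL17 replicate 2 in 15 and to PBS replicate 2 in 8. PBS replicate 1 was the lowest library in 0 of the 36 genes and the highest in 20. In bulk RNA, fewer cells expressing a gene and less of its RNA per cell cannot be told apart.

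**Figure D1:**
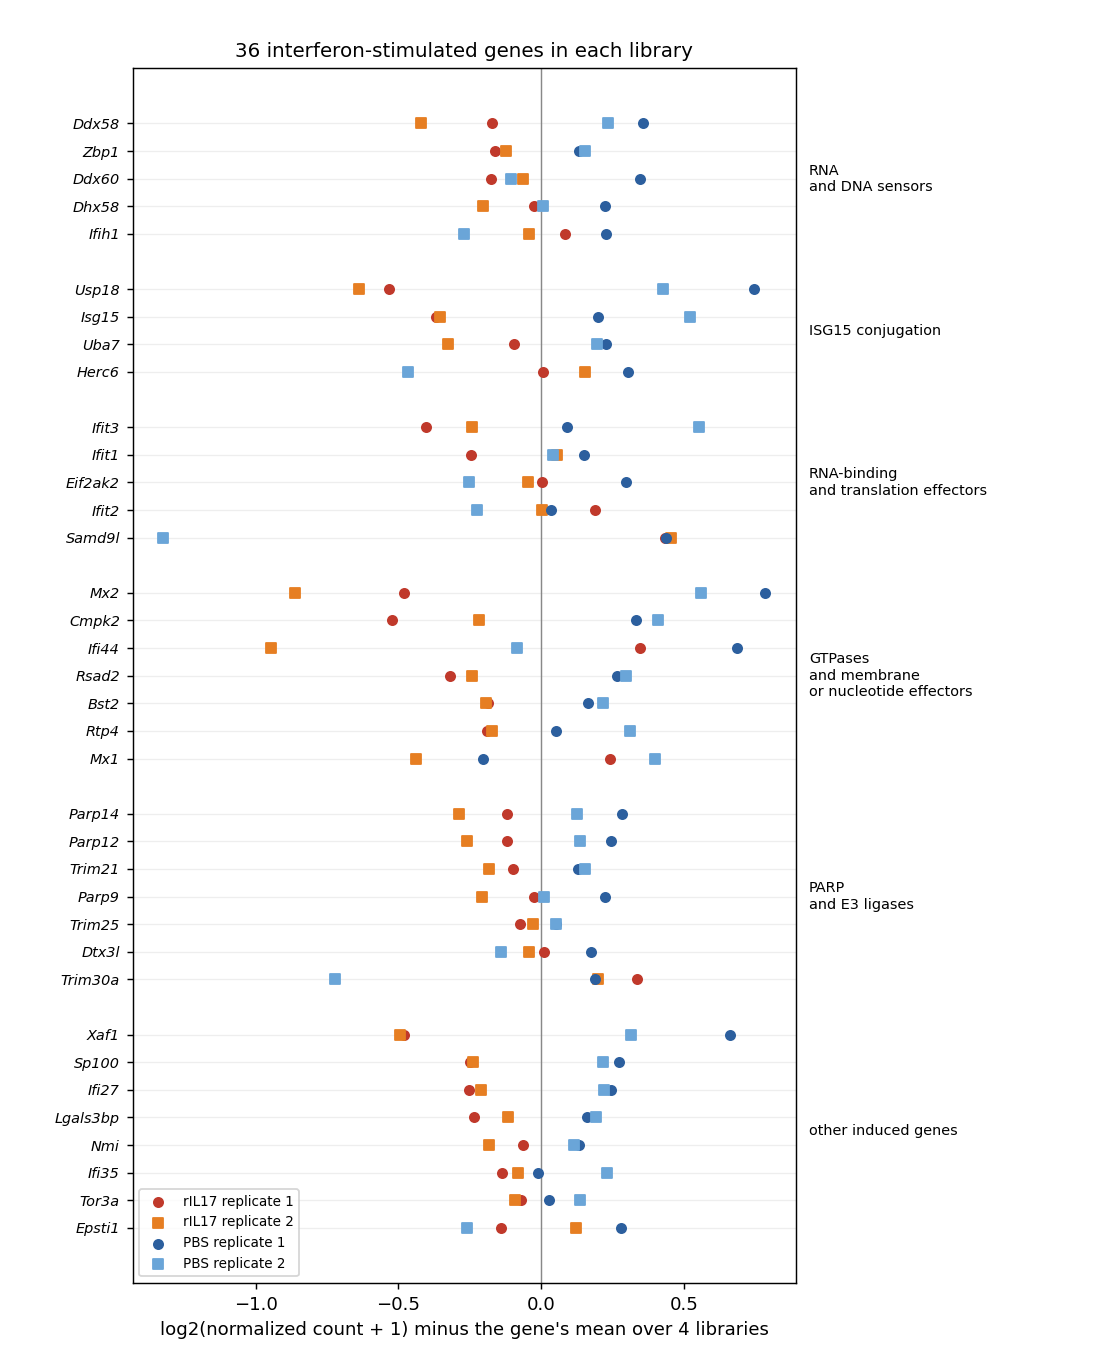
Values of the 36 antiviral interferon-stimulated genes in the 4 libraries, grouped by role, as log2(normalized count + 1) minus the mean of the gene over the libraries (horizontal axis); red circles and orange squares are rIL17 replicates 1 and 2, dark blue circles and light blue squares are PBS replicates 1 and 2. In 24 of the 35 tested genes both red or orange points lie left of both blue points, and in 8 genes, among them Samd9l, Trim30a and Herc6, the light blue square of PBS replicate 2 is the point farthest left.

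Per length, the most abundant genes of the list were Lgals3bp, with 1105 normalized counts per kilobase of exon in the rIL17 group and 1407 in the PBS group, and Bst2, with 1081 in the rIL17 group and 1406 in the PBS group. Ifi27 followed with 839 in the rIL17 group and 1159 in the PBS group, and then Isg15 with 365 in the rIL17 group and 606 in the PBS group. Mx1, Ifi44 and Mx2 were the 3 least abundant of the list by level per kilobase in the PBS group, at 1.70, 7.08 and 7.79 normalized counts per kilobase. 4T1 cells thus had RNA of most of these genes under PBS, over a wide range of levels.

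Among the sensors of viral nucleic acid, 3 of 5 had both rIL17 libraries below both PBS libraries, against 24.7% of all tested genes. The median log2 fold change of the 5 sensors was -0.24. Ddx58 encodes RIG-I, which recognizes short viral RNA with a triphosphate end. It had 696 and 586 normalized counts in the rIL17 libraries, against 1005 and 922 in the PBS libraries. The groups were well apart, with both rIL17 values far under the lower PBS value. The log2 fold change was -0.59 with a standard error of 0.11, and the adjusted p of 0.0832 from limma missed the threshold. Without PBS replicate 2 the log2 fold change was -0.65 and the adjusted p was 0.0415, past the threshold. Ifih1 encodes MDA5, the sensor of long double-stranded RNA. It had 197 and 181 normalized counts in the rIL17 libraries, against 218 and 154 in PBS replicates 1 and 2, so the groups overlapped and the PBS libraries lay on both sides of the rIL17 libraries. Its log2 fold change of 0.04 became -0.21 without PBS replicate 2. Dhx58, encoding the regulatory helicase LGP2, had a log2 fold change of -0.23 (-0.34 without PBS replicate 2), and Zbp1, encoding a sensor of left-handed nucleic acid, had one of -0.29. Ddx60, encoding a helicase linked to RIG-I signalling, had -0.24 with overlapping groups and -0.47 without PBS replicate 2.

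The ISG15 system held some of the larger differences. Isg15 encodes the ubiquitin-like modifier itself and lies on chr4:156199424-156200818 of mm10, minus strand. It had 274 and 277 normalized counts in the rIL17 libraries, against 407 and 509 in the PBS libraries, a mean of 276 ± 1.67 in the rIL17 group and 458 ± 72.1 in the PBS group (SD, n = 2 each). The rIL17 libraries were nearly equal and both lay under the lower PBS library, and the rIL17 mean was 60.2% of the PBS mean. The log2 fold change was -0.72 with a standard error of 0.13 and an adjusted p of 0.0846 from limma, and -0.56 without PBS replicate 2. Usp18 encodes the protease that removes ISG15 from proteins and restrains the type I interferon receptor. It had 28.1 and 26.1 normalized counts in the rIL17 libraries, against 69.7 and 55.7 in the PBS libraries. The rIL17 mean was 43.3% of the PBS mean with no overlap, and the log2 fold change of -1.17 (standard error 0.25) had an adjusted p of 0.112 from limma; without PBS replicate 2 it was -1.33. Uba7, encoding the activating enzyme for ISG15, had 323 and 275 normalized counts in the rIL17 libraries and 404 and 396 in the PBS libraries, with a log2 fold change of -0.42. Herc6, whose product is the main ISG15 ligase of mouse cells, differed from these 3 genes. It had 147 and 162 normalized counts in the rIL17 libraries, against 181 and 105 in PBS replicates 1 and 2, and its log2 fold change of 0.16 became -0.22 without PBS replicate 2. Of the 100-base windows of its transcript, 20.9% also occur in an overlapping transcript, Gm45193, so its count is uncertain.

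The RNA-binding and translation effectors had no shared direction in the 4 libraries. Of these 5 genes, 1 had both rIL17 libraries below both PBS libraries, against 24.7% of all tested genes. The median log2 fold change of the 5 was -0.04. Eif2ak2 encodes PKR, which phosphorylates eIF2-alpha on binding double-stranded RNA. It had 832 and 804 normalized counts in the rIL17 libraries, against 1019 and 696 in PBS replicates 1 and 2. The PBS libraries bracketed the rIL17 libraries, and the log2 fold change of -0.04 became -0.32 without PBS replicate 2. Samd9l, encoding an antiviral factor that restricts poxviruses, had 214 and 218 normalized counts in the rIL17 libraries, against 215 and 62.6 in PBS replicates 1 and 2. PBS replicate 1 lay between the rIL17 libraries and PBS replicate 2 was far lower. Its log2 fold change of 0.89, the highest of the list, was 0.01 without PBS replicate 2. The Ifit genes encode tetratricopeptide proteins that bind viral RNA and hold back translation, and 3 of them lie in a cluster on chromosome 19, the start of Ifit2 being 32837 bases from that of Ifit3 and the start of Ifit1 57340 bases from it. Ifit3 had 24.1 and 27.1 normalized counts in the rIL17 libraries and 34.3 and 47.7 in the PBS libraries, with a log2 fold change of -0.64 and an adjusted p of 0.346 from limma, and -0.41 without PBS replicate 2. Its neighbours overlapped between groups, at -0.19 for Ifit1 and 0.19 for Ifit2 (0.06 without PBS replicate 2). Of the 100-base windows of Ifit3, 31.7% also occur in the near-identical Ifit3b, so its count is uncertain.

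The GTPases, membrane proteins and nucleotide enzymes were the class with the lowest median, -0.58 on the log2 scale. In 5 of the 6 tested genes of this class, each rIL17 value was under the lower PBS value. Over all tested genes that share was 24.7%. Mx2, of the dynamin-like GTPase family, had 12.1 and 9.03 normalized counts in the rIL17 libraries, against 30.4 and 25.9 in the PBS libraries. The rIL17 mean was 37.5% of the PBS mean, the lowest such share of the list, and the log2 fold change was -1.34 with a standard error of 0.36 and an adjusted p of 0.170 from limma (-1.46 without PBS replicate 2). Its counts are low and its error is wide. Mx1, its paralog, was too low to test: it had 7.04 and 4.01 normalized counts in the rIL17 libraries, against 4.91 and 7.96 in the PBS libraries, with overlapping groups. Bst2 encodes tetherin, which holds budding enveloped virus on the cell surface. It had 978 and 975 normalized counts in the rIL17 libraries, against 1246 and 1294 in the PBS libraries. The spread within each group was small beside the gap, and the log2 fold change of -0.38 (standard error 0.07) had an adjusted p of 0.0862 from limma.

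Rsad2 and Cmpk2 are neighbours on chromosome 12, transcribed away from each other from start sites 12752 bases apart. Rsad2 encodes viperin, which makes a chain-terminating nucleotide from CTP, and Cmpk2 encodes a mitochondrial nucleotide kinase. Rsad2 had 70.4 and 74.2 normalized counts in the rIL17 libraries, against 106 and 108 in the PBS libraries. Cmpk2 had 66.3 and 82.2 in the rIL17 libraries, against 121 and 127 in the PBS libraries. In both genes the groups were apart, with log2 fold changes of -0.56 for Rsad2 and -0.74 for Cmpk2, and neither passed (adjusted p of 0.203 and 0.155 from limma). Rtp4, a negative regulator of interferon responses, had a log2 fold change of -0.36 (-0.23 without PBS replicate 2). Of the 100-base windows of the Rtp4 transcript, 11.2% also occur in the overlapping Gm45338, so the Rtp4 count is uncertain. Gm45338 had a mean of 44.8 normalized counts over the libraries. Ifi44, encoding an interferon-induced protein of the cytoplasm, was the one overlapping gene tested in this class, with 43.2 and 17.0 normalized counts in the rIL17 libraries and 54.9 and 31.8 in the PBS libraries. Its log2 fold change was -0.60, and -0.99 without PBS replicate 2.

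In the class of PARP proteins and E3 ligases, 5 of 7 genes had both rIL17 libraries below both PBS libraries. The share over all tested genes was 24.7%. The median log2 fold change of the 7 genes was -0.23. Trim25, encoding the ubiquitin ligase that helps activate RIG-I, had the largest mean count, with 2047 and 2109 normalized counts in the rIL17 libraries and 2231 and 2232 in the PBS libraries. The groups were apart by little, with a log2 fold change of -0.10. Parp12 and Parp14 encode mono-ADP-ribosyltransferases of the antiviral response. Parp14 had 716 and 637 normalized counts in the rIL17 libraries, against 948 and 850.2 in the PBS libraries, and the log2 fold changes of Parp12 and Parp14 were -0.38 and -0.41. Parp9 and Dtx3l encode a paired ADP-ribosyltransferase and ubiquitin ligase, and their start sites lie 681 bases apart on opposite strands of chromosome 16. Parp9 had a log2 fold change of -0.23 with the groups apart (-0.34 without PBS replicate 2), and Dtx3l had -0.03 with the groups overlapping (-0.19 without it). Their transcripts share 458 exonic bases on opposite strands, and the sources used here do not give the strand setting of the counting, so the 2 counts may not be fully separate. Trim21, encoding the cytosolic antibody receptor, had -0.28. Trim30a, encoding a mouse TRIM protein that dampens NF-kappaB signalling, was the only gene of the 36 with both rIL17 libraries above both PBS libraries. It had 282 and 257 normalized counts in the rIL17 libraries, against 255 and 135 in PBS replicates 1 and 2, and its log2 fold change of 0.53 was 0.08 without PBS replicate 2.

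Among the other induced genes, 7 of 8 had both rIL17 libraries below both PBS libraries, against 24.7% of all tested genes. The median log2 fold change of the 8 was -0.30. Ifi27 (ENSMUSG00000064215) lies on chr12:103434211-103440239 of mm10, plus strand. It had 1213 and 1250 normalized counts in the rIL17 libraries, against 1716 and 1685 in the PBS libraries, a mean of 1232 ± 25.6 in the rIL17 group and 1700.3 ± 22.3 in the PBS group (SD, n = 2 each). Both rIL17 libraries lay far under both PBS libraries and the libraries of each group were close. The log2 fold change was -0.47 with a standard error of 0.07, a 95% confidence interval of -0.63 to -0.30 and an adjusted p of 0.0457 from limma. The call is near the threshold: with the filter raised to a mean of 50 the adjusted p was 0.0508, with a filter of 1 count in a group it was 0.361, and without rIL17 replicate 1 or 2 it was 0.644 or 0.377, while the log2 fold change stayed between -0.49 and -0.41 in every alternative except upper-quartile scaling (-0.50).

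Xaf1, encoding a pro-apoptotic antagonist of XIAP, had 109 and 107 normalized counts in the rIL17 libraries, against 240.4 and 189 in the PBS libraries. The rIL17 mean was 50.3% of the PBS mean. The log2 fold change was -0.97 with a standard error of 0.17 and an adjusted p of 0.0696 from limma, and without PBS replicate 2 it was -1.15 with an adjusted p of 0.0220, past the threshold. Lgals3bp, encoding a secreted galectin-binding glycoprotein, was the gene of the list with the largest mean count. It had 3016 and 3274 normalized counts in the rIL17 libraries, against 3962 and 4051 in the PBS libraries, and its log2 fold change of -0.35 (standard error 0.07) had an adjusted p of 0.0888 from limma. Sp100, encoding a protein of nuclear bodies that restricts DNA viruses, had 292 and 294 normalized counts in the rIL17 libraries, against 419 and 403 in the PBS libraries, with a log2 fold change of -0.49. The paired adaptor proteins Nmi and Ifi35 had -0.25 and -0.22 (-0.10 for Ifi35 without PBS replicate 2), and Tor3a, encoding a torsin ATPase, had -0.16. Epsti1 overlapped between groups at -0.02, and had -0.29 without PBS replicate 2.

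**Figure D2:**
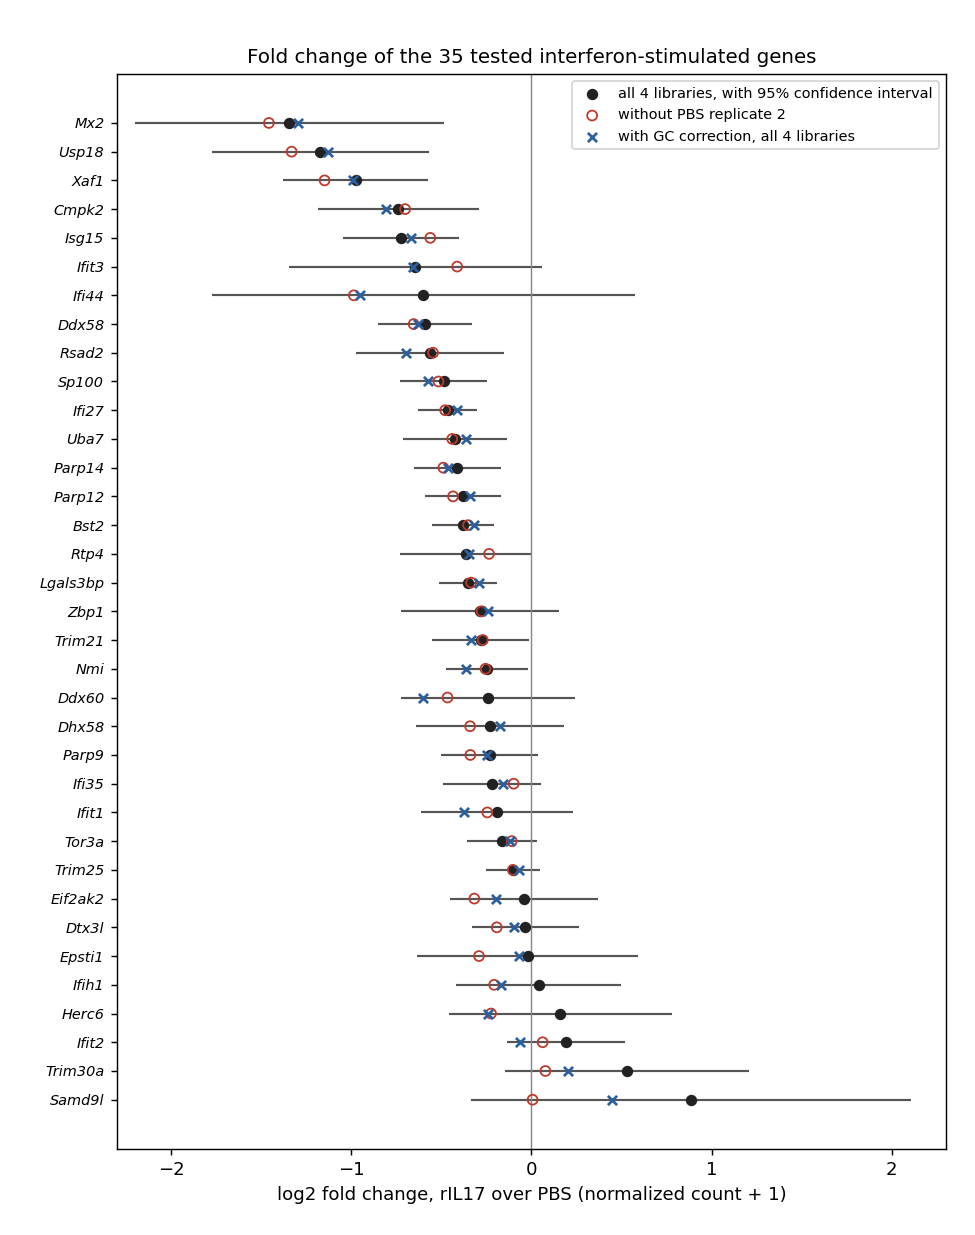
Log2 fold change of the 35 tested antiviral genes, rIL17 over PBS (horizontal axis), sorted from lowest to highest; black points and bars are the fit on all 4 libraries with its 95% confidence interval, red open circles the fit without PBS replicate 2, and blue crosses the fit after correction for GC content. The points run from -1.34 for Mx2 to 0.89 for Samd9l, and the red circle of Samd9l lies at 0.01.

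The genes of the list did not all depend on PBS replicate 2 in the same way, and the difference went with base composition. GC content of the longest transcript ran from 38.8% to 55.8% over the 35 tested genes. Of the 12 genes with at least 50% GC, all 12 had both rIL17 libraries below both PBS libraries, against 35% of the 6503 tested genes in that range. Their median log2 fold change was -0.38, against -0.06 over those 6503 genes, and the PBS libraries differed by a median of -0.0038 (replicate 2 minus replicate 1, log2). Of the 12 genes from 45% to below 50% GC, 10 had both rIL17 libraries below both PBS libraries, against 23.5% of 3522 tested genes, with a median of -0.39. Of the 11 genes below 45% GC, 2 were below, 1 was above and 8 overlapped, against 6.62% below and 52.9% above among the 3445 tested genes in that range. Their median log2 fold change was -0.04, and PBS replicate 2 was lower than PBS replicate 1 by a median log2 difference of -0.50. Without PBS replicate 2 the median of these 11 genes was -0.24, and after the GC correction it was also -0.24.

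The 8 genes that were lowest in PBS replicate 2 were Ifih1, Herc6, Ifit2, Eif2ak2, Samd9l, Dtx3l, Trim30a and Epsti1. Their GC content ran from 38.8% to 46.3%. They include the 5 genes with a positive log2 fold change, and as a group they ran from -0.04 to 0.89. Without PBS replicate 2 they ran from -0.32 to 0.08, with 5 of 8 below 0. These 8 genes were picked for being lowest in PBS replicate 2, so leaving it out had to lower the log2 fold change of each. The direction of that shift is therefore no separate result. The whole table showed the same gradient: the 3445 tested genes below 45% GC were lower in PBS replicate 2 than in PBS replicate 1 by a median log2 difference of -0.26, and their median log2 fold change was 0.23. Across the 35 antiviral genes Pearson's r between GC content and the log2 fold change was -0.46, against -0.42 across 13470 tested genes with a GC value. With the difference between the PBS libraries it was 0.65 across the antiviral genes and 0.40 across the table. A weaker gradient remained without PBS replicate 2. With the log2 fold change against PBS replicate 1 alone, r was -0.178 across the antiviral genes and -0.235 across the table. These are descriptions across genes of the same 4 libraries, and the part of GC content in the fold changes was not tested beyond the correction.

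**Figure D3:**
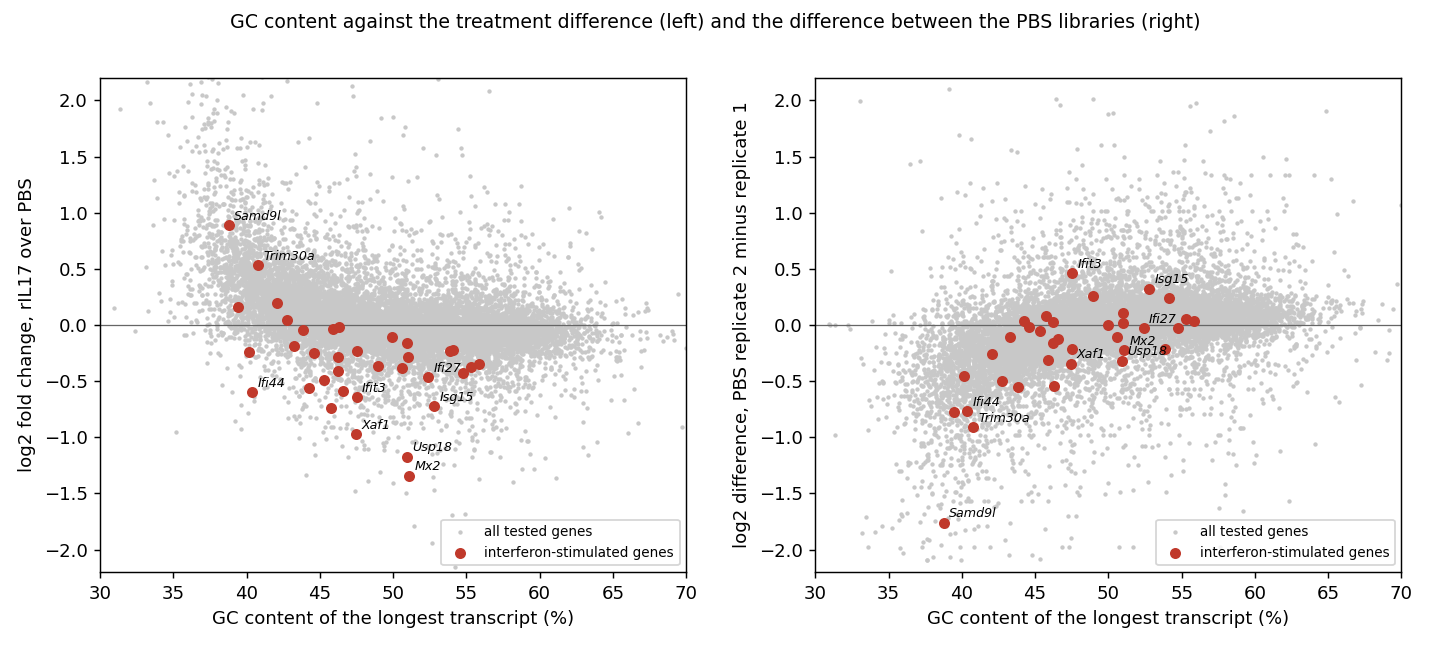
GC content of the longest transcript in percent (horizontal axes) against the log2 fold change, rIL17 over PBS (left), and the log2 difference between PBS replicate 2 and PBS replicate 1 (right); red points are the antiviral genes, grey points are all tested genes, and genes outside the plotted range are not drawn. Samd9l, at 38.8% GC, lies at 0.89 on the left and at -1.76 on the right.

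With PBS replicate 2 left out, 32 of the 35 genes had a log2 fold change below 0, against 49.5% of all tested genes, and the median was -0.34. In that fit 3 genes fell past the threshold (Ifi27, Ddx58 and Xaf1), against 0.297% of all tested genes called lower. A lone PBS library was then assumed to vary like the rIL17 libraries. With the GC correction and all 4 libraries, 33 of 35 were below 0, against 51.6% of all tested genes, the median was again -0.34, and 8 fell past the threshold, against 0.787% of all tested genes. Those 8 were Ifi27, Ddx58, Isg15, Xaf1, Lgals3bp, Bst2, Parp14 and Sp100. With both steps together, an alternative chosen after seeing the data, all 35 tested genes were below 0, against 51.7% of all tested genes, and 11 fell past the threshold, against 1.8%. Called higher were 0 of the 35 genes in each of these 3 fits, against 1.68%, 1.6% and 3.29% of all tested genes. Without PBS replicate 1, by contrast, 9 genes passed, 7 of them lower, against 3.08% of all tested genes, and 2 higher, against 12.9%. The higher ones were Samd9l (log2 fold change 1.77) and Trim30a (0.99).

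The promoters of many of these genes hold the element through which interferon acts, and the sequences below show it for the genes with the smallest p that carry it. In the RefSeq promoter table of build GRCm38.p6, 250 bases before to 50 bases after the start, 26 of the 36 genes had an entry. An ISRE core, searched as GAAA, 2 bases of any kind and GAAA, and for the other strand as TTTC, 2 bases of any kind and TTTC, was found in 11 of these 26 genes (42.3%), against 3.99% of 27025 genes in the table. Matches may overlap each other. Capitals mark the matched bases. In the Isg15 promoter, chr4:156200769-156201068 on the minus strand, 3 overlapping matches start at positions -78, -72 and -66 from the start site. In the Bst2 promoter, chr8:71537423-71537722 on the minus strand, 2 overlapping matches start at -130 and -124. In the Ddx58 window, chr4:40239776-40240075 on the minus strand, 1 match lies just past the start site.
Isg15: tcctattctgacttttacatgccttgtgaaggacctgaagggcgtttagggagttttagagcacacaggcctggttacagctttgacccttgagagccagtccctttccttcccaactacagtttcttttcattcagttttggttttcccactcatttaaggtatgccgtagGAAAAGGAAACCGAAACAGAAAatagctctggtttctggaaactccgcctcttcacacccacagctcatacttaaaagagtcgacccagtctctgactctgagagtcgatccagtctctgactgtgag
Bst2: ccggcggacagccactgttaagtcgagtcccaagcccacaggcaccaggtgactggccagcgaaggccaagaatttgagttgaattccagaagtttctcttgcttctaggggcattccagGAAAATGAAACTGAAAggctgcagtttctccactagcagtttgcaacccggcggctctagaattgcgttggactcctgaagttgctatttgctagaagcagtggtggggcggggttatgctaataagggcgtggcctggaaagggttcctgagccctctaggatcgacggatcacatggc
Ddx58: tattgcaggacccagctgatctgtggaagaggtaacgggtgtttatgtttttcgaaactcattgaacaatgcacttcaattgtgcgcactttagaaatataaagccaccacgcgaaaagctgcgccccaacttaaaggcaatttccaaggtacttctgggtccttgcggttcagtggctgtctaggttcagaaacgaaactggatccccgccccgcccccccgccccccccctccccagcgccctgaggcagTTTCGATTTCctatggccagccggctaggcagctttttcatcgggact

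The neighbours Ifit1 and Ifit3 on chromosome 19 carry 2 matches each, and the matched bases are the same in both genes. The flanking 3 bases on each side are shown in lower case.
Ifit3, upstream match: aagTTTCACTTTCctc
Ifit3, downstream match: ctgTTTCAGTTTCtac
Ifit1, upstream match: cagTTTCACTTTCcag
Ifit1, downstream match: cagTTTCAGTTTCtca
The presence of the ISRE core did not sort the genes by their change. For the 11 genes with a match the median log2 fold change was -0.28, running from -0.72 for Isg15 to 0.53 for Trim30a, and 6 had both rIL17 libraries below both PBS libraries. The 15 genes without one had a median of -0.25, and 9 had both rIL17 libraries below both PBS libraries. Over all tested genes that share was 24.7%. Xaf1, Cmpk2 and Sp100 were among those without a match in this window. The gamma-activated sequence TTCNNNGAA occurred in 4 of the 26 genes (15.4%) against 9.55% of the table, and a kappaB motif in 3 (11.5%) against 9.55%. A match describes the letters of the window and not a bound site.

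Upstream of these genes in the pathway, the interferon receptor chains showed small differences in both directions, and limma called none of 6 (1 at an unadjusted p below 0.05). Ifnar1 had 2249 and 2080.0 normalized counts in the rIL17 libraries, against 2069 and 2024 in the PBS libraries, and Ifnar2 had a log2 fold change of 0.18. Ifngr2, a chain of the type II receptor, had -0.29. Of the 20 interferon genes listed, only Ifnk had a row, with 4.02 and 3.01 normalized counts in the rIL17 libraries and 0 and 1.99 in the PBS libraries; the others were not analysed here. Of 13 JAK, STAT and IRF genes limma called none in the fit on all 4 libraries. At an unadjusted p below 0.05 from limma there were 8 of them, against 2151 of all 13479 tested genes. In that fit 5 had both rIL17 libraries below both PBS libraries, against 24.7% of all tested genes. Another 3 had both above, against 25.4%, and the median log2 fold change of the 13 was -0.03. Irf1 had 2012 and 2012 normalized counts in the rIL17 libraries, against 2632 and 2842 in the PBS libraries, with a log2 fold change of -0.44 and an adjusted p of 0.0550 from limma. Irf7, the factor that amplifies interferon production, had 119 and 137 in the rIL17 libraries, against 249 and 229.7 in the PBS libraries, with -0.90 and an adjusted p of 0.0590. Irf5 had -0.75, and Stat3 had 0.43 with an adjusted p of 0.0550 and both rIL17 libraries higher. Without PBS replicate 2, Irf1, Irf7 and Stat3 passed (adjusted p of 0.0322, 0.0452 and 0.0311 from limma).

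Among the 12 tested sensing and signalling genes outside the list limma called none (0 at an unadjusted p below 0.05), and their median was 0.09 on the log2 fold change scale. Traf3, an adaptor for interferon induction, had -0.16, and Aim2, a DNA sensor, had 0.55 and 0.07 without PBS replicate 2. Of 13 feedback inhibitors, Socs3 was called. It had 2433 and 2413 normalized counts in the rIL17 libraries, against 1376 and 1397 in the PBS libraries, and rose with a log2 fold change of 0.81 (standard error 0.06, adjusted p of 0.0112 from limma). Its product blocks JAK kinases bound to receptors of the IL-6 type. Socs1, the main inhibitor of interferon receptors in that family, had -0.26 and was not called. In the fit on all 4 libraries Socs3 was the one gene of these lists called higher. With the GC correction Stat3 and Irf8 were called higher too (adjusted p of 0.0134 and 0.0283 from limma). So was 1 of the 37 tested other interferon-stimulated genes given below, against 1.6% of all tested genes. Called lower with the GC correction were 3 genes of that list and 3 of the 13 JAK, STAT and IRF genes. So were 3 of the 17 tested OAS and GTPase genes and 4 of the 12 genes of MHC class I presentation. The share of all tested genes called lower in that fit was 0.787%.

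Related interferon-induced families are given beside the shares of all tested genes, 24.7% with both rIL17 libraries below both PBS libraries, 25.4% with both above and 0.171% called lower. Of 17 tested OAS and GTPase genes, 12 had both rIL17 libraries below both PBS libraries and 1 had both above, and the median log2 fold change was -0.36. Oasl2, encoding an OAS-like protein, was the called one and fell: it had 390.0 and 424 normalized counts in the rIL17 libraries, against 646 and 661 in the PBS libraries (log2 fold change -0.68, standard error 0.09, adjusted p of 0.0421 from limma). Of 37 tested other interferon-stimulated genes, 20 were below and 4 above, with a median of -0.15 that is nearer to 0 than that of the antiviral genes, and Apol9a (-0.67) and Apol9b (-0.78) fell with adjusted p of 0.0352 and 0.0339. Apol9a and Apol9b are near-identical copies, so their separate counts are uncertain. Ifi203, a gene of the DNA-sensing Ifi200 family, had 1.08 with both rIL17 libraries higher and was not called. Of 12 genes of MHC class I presentation, 8 were below and none above, with a median of -0.25, and Tapbp, encoding tapasin, fell with -0.48 and an adjusted p of 0.0339. Without rIL17 replicate 1 or without rIL17 replicate 2, none of these genes, Socs3 included, passed in limma (0 calls each, with adjusted p for Socs3 of 0.276 and 0.226).

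**Figure D4:**
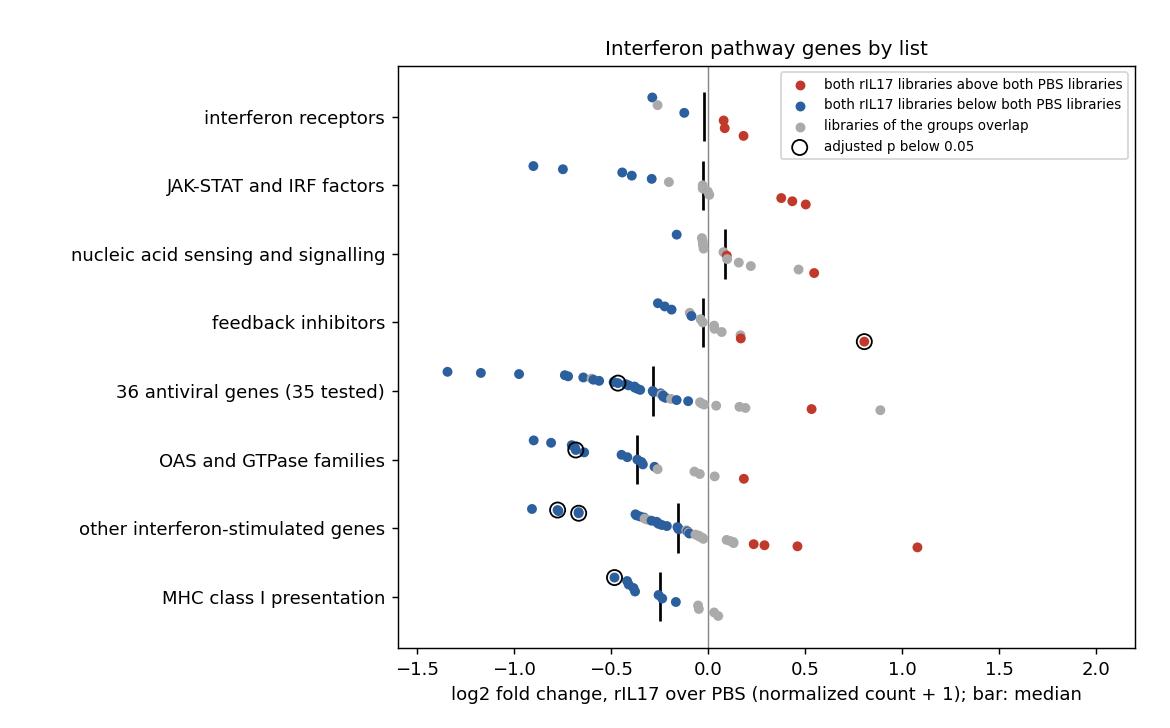
Log2 fold change, rIL17 over PBS (horizontal axis), of the tested genes of each interferon pathway list; each point is a gene, blue where both rIL17 libraries lie below both PBS libraries, red where both lie above and grey where the groups overlap, with a black bar at the median of the list and a ring around called genes. The medians are -0.02 for the receptors, -0.03 for the JAK-STAT and IRF factors, -0.29 for the antiviral genes and -0.36 for the OAS and GTPase families.

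Markers of the labelled cell type were present. Krt8, a keratin of simple epithelium, had 25498 and 26467 normalized counts in the rIL17 libraries, against 29749 and 32665 in the PBS libraries, and all 6 epithelial markers had a log2 fold change below 0, with none called and a median of -0.27. Pan-leukocyte and lymphocyte markers were near 0. The 3 leukocyte markers with a row, Ptprc among them, summed to 14.1 and 13.0 normalized counts in the rIL17 libraries and 7.85 and 5.97 in the PBS libraries. Ptprc itself was at 3.02 and 2.01 in the rIL17 libraries and at 0 in both PBS libraries. The 3 macrophage markers with a row summed to 119.6 and 132 in the rIL17 libraries and 121 and 123 in the PBS libraries, of which Cd68 made up 108 and 127 in the rIL17 libraries and 115 and 118 in the PBS libraries. The lymphocyte markers summed to 0 and 2.01 in the rIL17 libraries and 0.981 and 0.994 in the PBS libraries, and the endothelial markers to 7.04 and 8.02 in the rIL17 libraries and 6.87 and 7.96 in the PBS libraries. The neutrophil markers summed to 37.2 and 18.1 in the rIL17 libraries and 15.7 and 13.9 in the PBS libraries. Of 2 plasmacytoid dendritic cell markers with a row, Ccr9 had 0 and 5.01 in the rIL17 libraries and 0 in both PBS libraries. The other was Tcf4, a transcription factor also made by many other cells. It had 4699 and 4777 in the rIL17 libraries and 4630.0 and 4024 in the PBS libraries. Its log2 fold change was 0.13, and 0.03 without PBS replicate 2. The fibroblast markers summed to 2946 and 2941 in the rIL17 libraries and 2408 and 2519.8 in the PBS libraries, almost all of it Pdgfra. The 3 tested fibroblast markers had log2 fold changes from -0.55 to 1.26, 1 below 0 and 2 above 0, and none was called. The macrophage sums overlapped between groups, and the leukocyte sums were too near 0 to give a direction. The part of other cell types in the differences was not tested.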

How the data were processed

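Total RNA of 4T1 cells was sequenced from directional libraries, per the labels' protocols. The submitters' processing notes list HISAT2 2.0.5, featureCounts 1.5.0-p3, CASAVA and the build mm10. The sources used here give neither annotation release nor strand setting. The deposited unit is a normalized signal: 100% of values in each library were whole multiples of 1 step (tolerance 0.001), the steps being 1.005 and 1.003 in the rIL17 libraries and 0.981 and 0.994 in the PBS libraries.

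Values were tested as log2(normalized count + 1) with limma 3.58.1 in R 4.3.3 (mean-variance trend, treatment as the only term, no replicate block), on genes with a mean of at least 10, with Benjamini-Hochberg adjustment over all 13479 genes. The fit was tested on simulated data. Symbols were matched for 21819 of 21840 rows, and gene coordinates are those of GENCODE M21. GC correction was a loess (span 0.5) of each library on transcript GC content, known for 99.9% of tested genes. Alternatives were other filters, pseudocounts of 0.1 and 5, 3 scalings, limma-voom, robust shrinkage, each library left out, the replicate block and the GC correction.

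The genes, the lists and the filter were chosen with earlier results of these data known. Values in all 4 libraries were to be given for called genes and, in each role class, for the gene with the largest mean and the largest change; others printed were chosen after their values were seen. The promoter rule asked for the 3 genes with the smallest p that hold an ISRE core. Counting precision follows the depth of 17511450 to 17970104 reads.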

Additional observations from a re-analysis of the deposited data

How the results depend on the processing

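Under the alternatives listed for the main comparison 28 of the 35 tested antiviral genes kept the direction of their log2 fold change, and 7 turned at least once; the count of calls moved much more. Against 1 antiviral gene, 5 genes of the other pathway lists and 103 genes of the whole table called, no filter and a mean of at least 1 in 1 group gave 0, 0 and 0, and a mean of at least 50 gave 0 antiviral genes. At an unadjusted p below 0.05 in limma, 17 antiviral genes passed in the main comparison, against 2151 of all 13479 tested genes. With no filter 16 antiviral genes passed that level, against 2739 of 21840 genes. With a mean of at least 1 in 1 group 16 passed it, against 2642 of 20677 genes. With a mean of at least 50 it was 14, against 1900 of 11132 genes. Upper-quartile scaling gave 3, 9 and 168, total-count scaling 3, 9 and 163, and robust shrinkage 4, 9 and 169; TMM scaling gave 8 genes of the pathway lists. GC correction gave 8, 17 and 322. Leaving out 1 library gave 0 to 9 antiviral genes, 0 to 29 pathway genes and 1 to 2158 genes in all. By library, the 3 counts were 0, 0 and 1 without rIL17 replicate 1, 0, 0 and 4 without rIL17 replicate 2, 9, 29 and 2158 without PBS replicate 1 and 3, 11 and 267 without PBS replicate 2; a lone library was assumed to vary like the other group. The median log2 fold change of -0.286 moved to -0.339 without PBS replicate 2 and to -0.338 with GC correction, alone or with the replicate block. GC correction without PBS replicate 2, chosen after seeing the data, gave 11, 26 and 686. The cause of these shifts was not tested.

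The labels do not say whether same-numbered libraries share more than a number. Across all tested genes, the deviations of PBS replicate 1 and rIL17 replicate 1 from their group means correlated at 0.126. With 2 libraries per group the replicate 2 deviations mirror these and add nothing, and the value cannot show whether the libraries were paired. The replicate block gave 10, 24 and 1124 calls, and GC correction with the replicate block 9, 21 and 573.

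With 1 library left out, log2 fold changes that turned ran from -0.21 to 0.29 for Ifih1 (-0.02 without rIL17 replicate 1), -0.22 to 0.55 for Herc6, -0.29 to 0.25 for Epsti1 (0.11 without rIL17 replicate 1), -1.25 to 0.046 for Ifi44, -0.32 to 0.23 for Eif2ak2 and -0.19 to 0.12 for Dtx3l. GC correction, with or without the replicate block, turned Ifih1 to -0.17, Herc6 to -0.24 and Ifit2 to -0.062. GC correction without PBS replicate 2 turned Ifih1 to -0.30, Herc6 to -0.43, Ifit2 to -0.055, Samd9l to -0.22 and Trim30a to -0.082. Count-based alternatives (edgeR, DESeq2) on the recovered reads were not run.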
